A study of Mus musculus with 8 samples.

Results

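The Zfp zinc finger genes are the mouse genes named Zfp followed by a number, most of which encode proteins with C2H2 zinc fingers. They were selected on their name and their read sum, from a table of reads per gene in naive and Th17 CD4 T cells. The unrelated RNA-binding gene Zfp36 was left out, and a sum of at least 500 reads over the 4 libraries was required. The rule kept 213 of 351 such symbols, of 16308 genes in the table. The sum was taken over both groups, so the genes were chosen by the same reads that are compared here, and counts of genes that moved are a description of the 213.

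Th17 cells are helper T cells that make interleukin-17. The 2 Th17 libraries came from C57BL/6 CD4 T cells kept for 72 h on antibodies to CD3 (0.25 µg/mL) and CD28 (1 µg/mL) with the cytokines TGF-β (0.1 ng/mL) and IL-6 (20 ng/mL), per the treatment labels, and the 2 naive libraries from untreated naive CD4 T cells of the same strain. The design calls these 4 libraries wild type, and the count columns name all 4 WT beside the gene name Malat1, whose meaning there is not given in the sources used here. RNA editing was also listed in 2 libraries of DDX5-deficient Th17 cells and 2 of wild-type Th17 cells, both C57BL/6, both cultured for 72 h with the same agents; the labels name no Cre driver for the deficient line. All libraries were made from RNA depleted of ribosomal RNA, and the design calls the replicates biological. DDX5 is an RNA helicase.

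A C2H2 finger is a short loop folded around a zinc ion, and arrays of fingers read DNA sequence base by base. In the largest class the fingers follow a KRAB box, which recruits the corepressor TRIM28 and through it the histone methyltransferase SETDB1 and HP1 proteins. KRAB zinc finger genes lie in clusters that grew by duplication, and many of their proteins silence retroelements in early embryos. A SCAN domain in other members pairs proteins with each other, and members with neither domain include transcription factors, chromatin-complex subunits and RNA-binding proteins.

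Reads on genes were 26624436 and 11768994 in the Th17 libraries and 20426728 and 16154625 in the naive libraries. The 6 Th17 marker genes summed to 3979 and 3568 read counts scaled to library size (CPM) in the Th17 libraries and to 0.796 and 0.563 CPM in the naive libraries, and the 5 naive T cell markers to 908 and 855 CPM in Th17 and 3897 and 4043 CPM in naive libraries. The 5 CD4 T cell markers with reads, at 1644 and 1462 CPM in Th17 and 4270 and 4933 CPM in naive libraries, all fell. Markers of other cells summed lower in Th17 libraries, although the myeloid gene Cd14 rose. The 5 CD8 and NK markers summed to 22.7 and 23.1 CPM in Th17 and 82.1 and 100 CPM in naive libraries, the 6 myeloid markers to 3.99 and 4.39 CPM in Th17 and 7.96 and 7.96 CPM in naive libraries, and the 5 B cell markers to 0.520 and 1.29 CPM in Th17 and 2.12 and 2.96 CPM in naive libraries. Il17a, Il22 and the B cell gene Ms4a1 had 0 reads in both naive libraries, and Itgam and Ncr1 had 0 in 1 Th17 library each. The part of other cells in the values below was not tested, and in RNA of many cells a lower share of expressing cells and less RNA per cell cannot be told apart.

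The Zfp genes summed to a lower scaled level in Th17 than in naive libraries. They held 168121 and 72125 reads in Th17 and 169309 and 114140 reads in naive libraries. The CPM also carry a scaling factor per library, 1.08 and 1.14 in Th17 and 0.92 and 0.88 in naive libraries. Their sum is therefore not a share of reads, and the factors widen the gap between the groups. Their summed level was 5832 and 5465 CPM in the Th17 libraries and 8984 and 8037 CPM in the naive libraries, and the median gene stood at 15.7 and 15.2 CPM in Th17 and 28.9 and 25.8 CPM in naive libraries. By sum and by median both Th17 libraries lay below both naive libraries. All 213 had reads in every library and all passed the filter on low counts. In edgeR's quasi-likelihood fit over all genes, 126 of the 213 fell in Th17 cells (adjusted p under 0.05), 19 rose and 68 did not pass. Of all 11989 genes tested, 30.7% fell and 34.3% rose. Of the 9450 tested genes with the same minimum of 500 reads, 34.9% fell and 30.5% rose. The median log2 fold change (Th17 over naive) was −0.66 in the 213 (quartiles −1.16 and −0.08), 0.06 in all genes tested and −0.07 in those with 500 reads. Without naive library 1 the count that fell was 71 and the count that rose 11, while 26.4% of genes with 500 reads fell and 21.1% rose. Without naive library 2 the counts were 89 that fell and 8 that rose, beside 2666 and 1992 of 9505 genes with 500 reads. The median stayed between −0.81 and −0.59 with any library left out.

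**Figure D1:**
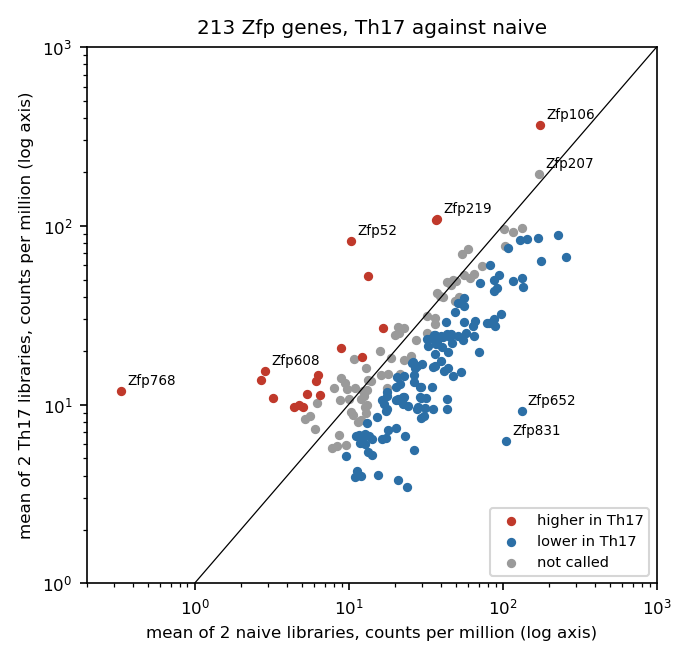
Mean level of each of the 213 Zfp genes in the 2 Th17 libraries (vertical axis, CPM, log scale) against the 2 naive libraries (horizontal axis, CPM, log scale), with the line of equal level. The 126 genes that fell in Th17 cells lie below the line across the range of naive levels, and the 19 that rose lie mostly at low naive levels, with Zfp768 at the far left.

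The minimum of 500 reads cut through a run of genes with like sums. Zfp189, Zfp438 and Zfp763, with 491, 492 and 495 reads, stayed out, and Zfp933, Zfp667 and Zfp768, with 507, 515 and 517 reads, entered. Zfp768 had 354 and 151 reads in Th17 and 10 and 2 reads in naive libraries. With all 4 libraries at the naive level, 11 of the 19 members that rose would have stayed under 500 reads, namely Zfp768, Zfp239, Zfp608, Zfp516, Zfp839, Zfp40, Zfp382, Zfp771, Zfp772, Zfp821 and Zfp940. With all at the Th17 level, 18 of the 126 that fell would have stayed under it. They were Zfp831, Zfp945, Zfp467, Zfp169, Zfp595, Zfp235, Zfp39, Zfp420, Zfp456, Zfp524, Zfp606, Zfp658, Zfp709, Zfp846, Zfp85, Zfp94, Zfp953 and Zfp959. These members entered through the group where they are high, so their values below are a description and their calls support no direction. Of the 138 Zfp genes under 500 reads, 95 could be tested, of which 21 fell and 26 rose, with a median log2 fold change of 0.11.

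The falls were led by Zfp831, a gene with 2 C2H2 fingers, and Zfp652, which in human cells partners the corepressor CBFA2T3. Zfp831 stood at 7.77 and 4.77 CPM in Th17 libraries and 134 and 76.0 CPM in naive libraries. The groups were far apart although the naive libraries differed between themselves. The log2 fold change was −4.03 ± 0.42 (SE). Zfp652 stood at 8.81 and 9.62 CPM in Th17 and 154 and 112 CPM in naive libraries, a log2 fold change of −3.85 ± 0.21 (edgeR adjusted p = 1.05e-06). An exon of Zfp652 overlaps the genes Abi3 and Zfp652os on the other strand, and the use of strand in the counting is not given in the sources used here.

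The next falls were at lower levels. Zfp945, a KRAB gene with 18 fingers, had 3.02 and 3.86 CPM in Th17 and 25.6 and 22.7 CPM in naive libraries. Zfp467, linked to the choice between fat and bone cells in mouse marrow, had 2.46 and 5.15 CPM in Th17 and 20.4 and 21.8 CPM in naive libraries. Their log2 fold changes were −2.82 ± 0.24 and −2.50 ± 0.36. That of Zfp467 was −3.09 without Th17 library 2, and its call was lost without naive library 1 (edgeR adjusted p = 0.064) and without naive library 2 (0.0684). The KRAB genes Zfp169, Zfp866, Zfp1 and Zfp595 and the genes Zfp592 and Zfp956 completed the 10 largest falls, at log2 fold changes of −2.26 to −1.89. In each of the 10 both Th17 libraries lay below both naive libraries, which is no finding, since they were picked for the size of their fall.

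The rises were led by Zfp768, a 10-finger gene without KRAB box that stood at 12.3 and 11.4 CPM in Th17 and 0.531 and 0.141 CPM in naive libraries. Its log2 fold change was 5.05 ± 0.53 and depended on the few naive reads, at 6.29 without naive library 1 and 4.39 without naive library 2. Zfp52, a KRAB gene with 14 fingers, stood at 88.5 and 75.2 CPM in Th17 and 9.34 and 11.5 CPM in naive libraries. It rose by a log2 of 2.98 ± 0.18 (edgeR adjusted p = 2.05e-06), the largest rise of any KRAB member, and an exon overlaps 9330136K24Rik on the other strand.

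Zfp608, which in mouse thymocytes represses the recombination genes Rag1 and Rag2, and its relative Zfp609 both rose. Zfp608 had 8.29 and 22.6 CPM in Th17 and 3.87 and 1.83 CPM in naive libraries. Its Th17 libraries were far apart, its log2 fold change of 2.41 ± 0.67 was 1.51 without Th17 library 2 and 3.04 without naive library 1, and its call was lost without naive library 1 (edgeR adjusted p = 0.117) and without naive library 2 (0.203). Zfp609 had 111 and 105 CPM in Th17 and 43.7 and 29.6 CPM in naive libraries, a log2 fold change of 1.56 ± 0.20 (edgeR adjusted p = 0.000199).

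Zfp703, which works with Groucho corepressors, had 49.5 and 55.2 CPM in Th17 and 14.9 and 11.9 CPM in naive libraries, a log2 fold change of 1.96 ± 0.18. Zfp239 had 15.1 and 12.4 CPM in Th17 and 3.08 and 2.32 CPM in naive libraries, a log2 fold change of 2.34 ± 0.30. Zfp516, known from brown fat, had 11.5 and 10.3 CPM in Th17 and 4.4 and 2.04 CPM in naive libraries. Its log2 fold change of 1.75 ± 0.39 was 2.37 without naive library 1 and 1.23 without naive library 2, and the call was lost in the last case (edgeR adjusted p = 0.0624). Zfp839, at 1.21 ± 0.24, lost its call there too (0.0553). The other 11 members that rose were Zfp219, Zfp367 and Zfp106, described below, and Zfp40, Zfp382, Zfp771, Zfp772, Zfp821 and Zfp940, at log2 fold changes of 0.80 to 1.14, plus Zfp446 and Zfp958 at 0.68 and 0.59. The last 8 are named here because they complete the count. Each of those 8 lost its call without naive library 1 and without naive library 2, at edgeR adjusted p of 0.0570 to 0.354. With every library kept, Zfp771, Zfp772, Zfp821, Zfp940 and Zfp958 also lost it with no filter on low counts (0.0585 to 0.0947), and Zfp771, Zfp940 and Zfp958 in the authors' deposited table (0.054 to 0.0987).

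**Figure D2:**
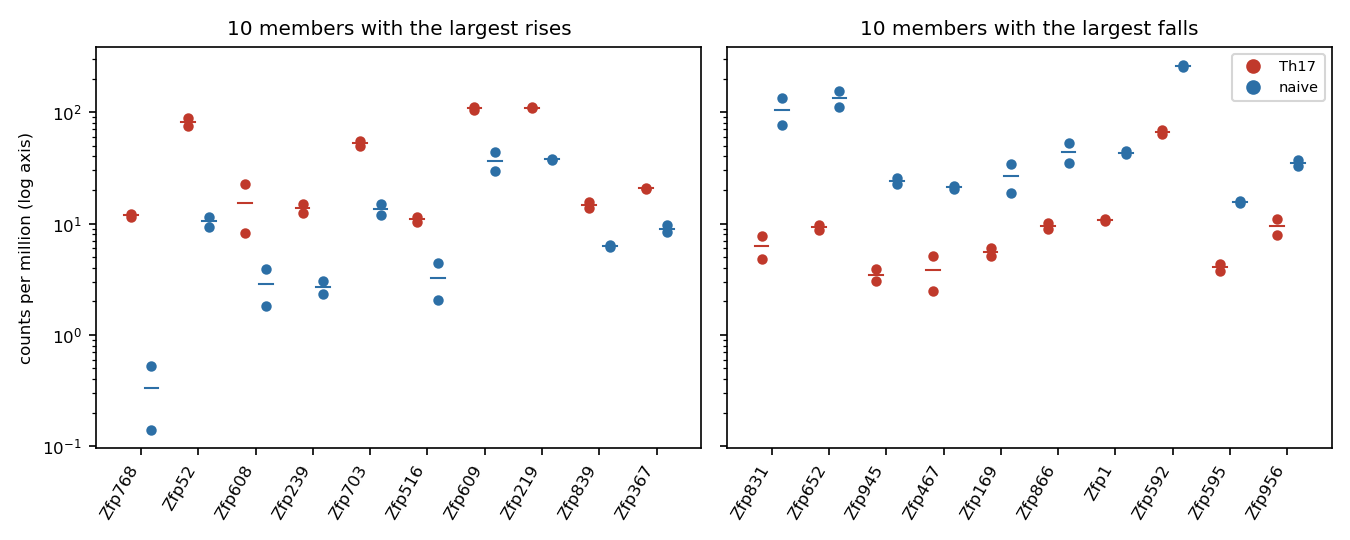
Level in each library (CPM, log axis) of the 10 Zfp genes with the largest rises and the 10 with the largest falls, Th17 libraries in red and naive libraries in blue, with a bar at each mean. The groups do not overlap in any of the 20 genes, which is no finding, since they were picked for the size of their change. The 2 Th17 libraries lie furthest apart in Zfp608 and Zfp467.

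Sorted by encoded domains, 108 members carried a KRAB box, 4 a KRAB box and a SCAN domain, 6 a SCAN domain, 91 C2H2 fingers without either, and 4 no finger of the searched spacing. Of the 108 KRAB members 70 fell and 6 rose, with a median log2 fold change of −0.75, and of the 91 with fingers alone 50 fell and 10 rose, with a median of −0.54. Without naive library 1 these counts were 35 and 1 for KRAB members and 32 and 7 for those with fingers alone. Leaving out naive library 2 gave 45 and 1 for KRAB members and 37 and 6 for those with fingers alone. Of the 6 SCAN members 3 fell and 1 rose, and of the 4 with both domains 3 fell and Zfp445 did not pass. The 4 without a finger of this spacing were Zfp703 and Zfp839, which rose, and Zfp330 and Zfp365, which did not pass. Whether the classes differ was not tested.

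Members with many fingers were mostly among those that fell. Of the 43 members with 15 or more fingers 34 fell and 1, Zfp40, rose, with a median log2 fold change of −0.79. Among those that fell, Zfp169, Zfp235, Zfp420, Zfp595, Zfp658, Zfp709 and Zfp945 entered through the naive libraries, and Zfp40 entered through the Th17 libraries. Their calls support no direction, and the counts are a description. Without naive library 1 the count that fell was 15, and without naive library 2 it was 23. Of the 31 members with 1 to 4 fingers 15 fell and 6 rose, with a median of −0.41. Here Zfp831 and Zfp524 entered through the naive libraries, and Zfp608 and Zfp821 through the Th17 libraries. Across the 213 genes, which are not independent replicates, Spearman's rho between finger number and log2 fold change was −0.18, and it was −0.04 within the 108 KRAB members. Zinc finger genes under other names were read beside them. Of 28 KRAB genes named otherwise 18 fell, with a median log2 fold change of −0.74, of 16 Zkscan and Zscan genes 12 fell and 1 rose, with a median of −0.76, and of 31 Zbtb genes 16 fell and 4 rose, with a median of −0.62. Of 11 Klf genes 3 fell and 4 rose, with a median of −0.23. Over all tested genes with 500 reads 34.9% fell and 30.5% rose, with a median of −0.07.

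**Figure D3:**
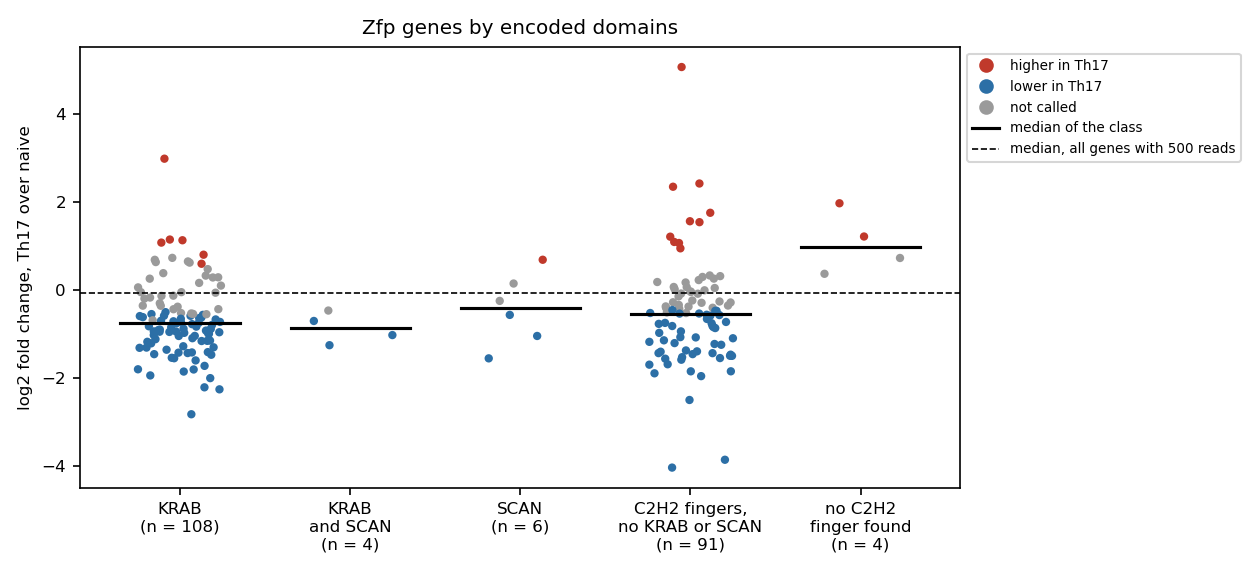
Log2 fold change, Th17 over naive, of each of the 213 Zfp genes by the domains found in the encoded protein, with the class median (bar) and the median of all 9450 tested genes with 500 reads (dashed line, −0.07). The KRAB and the finger-only classes both centre below the dashed line, at −0.75 and −0.54. The 4 genes without a C2H2 finger of the searched spacing lie above it.

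Of the 213 members 108 lay in 19 genome clusters, runs of 3 or more members whose neighbouring starts were within 500 kb. Of these 72 fell and 7 rose, with a median log2 fold change of −0.81, and of the 105 outside clusters 54 fell and 12 rose, with a median of −0.52. The clustered counts were 38 and 2 without naive library 1 and 48 and 2 without naive library 2. The largest cluster, 16 members on chromosome 17 (mm10, chr17:21008903-23564238), held both ends of the KRAB range. In it 11 members fell and 2 rose, Zfp945 fell by 2.82 on the log2 scale and Zfp52 rose by 2.98, and its second riser was Zfp40. A cluster of 10 on chromosome 7 (chr7:127233061-127885996) held Zfp768 and Zfp771, which rose, next to 6 members that fell. A cluster of 4 members without KRAB box on the same chromosome (chr7:4915217-5036768), Zfp628, Zfp579, Zfp524 and Zfp865, fell by 1.40 to 1.53, within a narrower range than any cluster of 5 or more members, though 46.0% of the 50-base words of Zfp524 also occur in another gene.

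On chromosome 13 (chr13:67312998-67755228) all 9 members, every one a KRAB gene, fell, at log2 fold changes of −1.94 to −0.67. Zfp595, Zfp953, Zfp456 and Zfp85 would have stayed under 500 reads with all libraries at the Th17 level. They entered through the naive libraries, so their calls support no direction, and the count of 9 is a description. Zfp595 had 4.37 and 3.71 CPM in Th17 and 15.1 and 16.1 CPM in naive libraries, and Zfp87 had 12.5 and 9.24 CPM in Th17 and 31.0 and 28.1 CPM in naive libraries. Zfp65, with the smallest fall, had 12.4 and 10 CPM in Th17 and 19.8 and 15.9 CPM in naive libraries. In these 3 genes both Th17 libraries lay below both naive libraries, which is no finding, since all 3 were called as falling. How many of all tested genes were separated in this way was not counted. All 9 passed in the fits that kept every library, in edgeR, in DESeq2 and in the authors' deposited table. The count was 8 without Th17 library 2, where Zfp65 lost its call, 4 without naive library 1 and 6 without naive library 2. Reads could be split between copies here, since 25.2% of the 50-base words of Zfp85 and 25.3% of those of Zfp429 also occur in another gene.

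**Figure D4:**
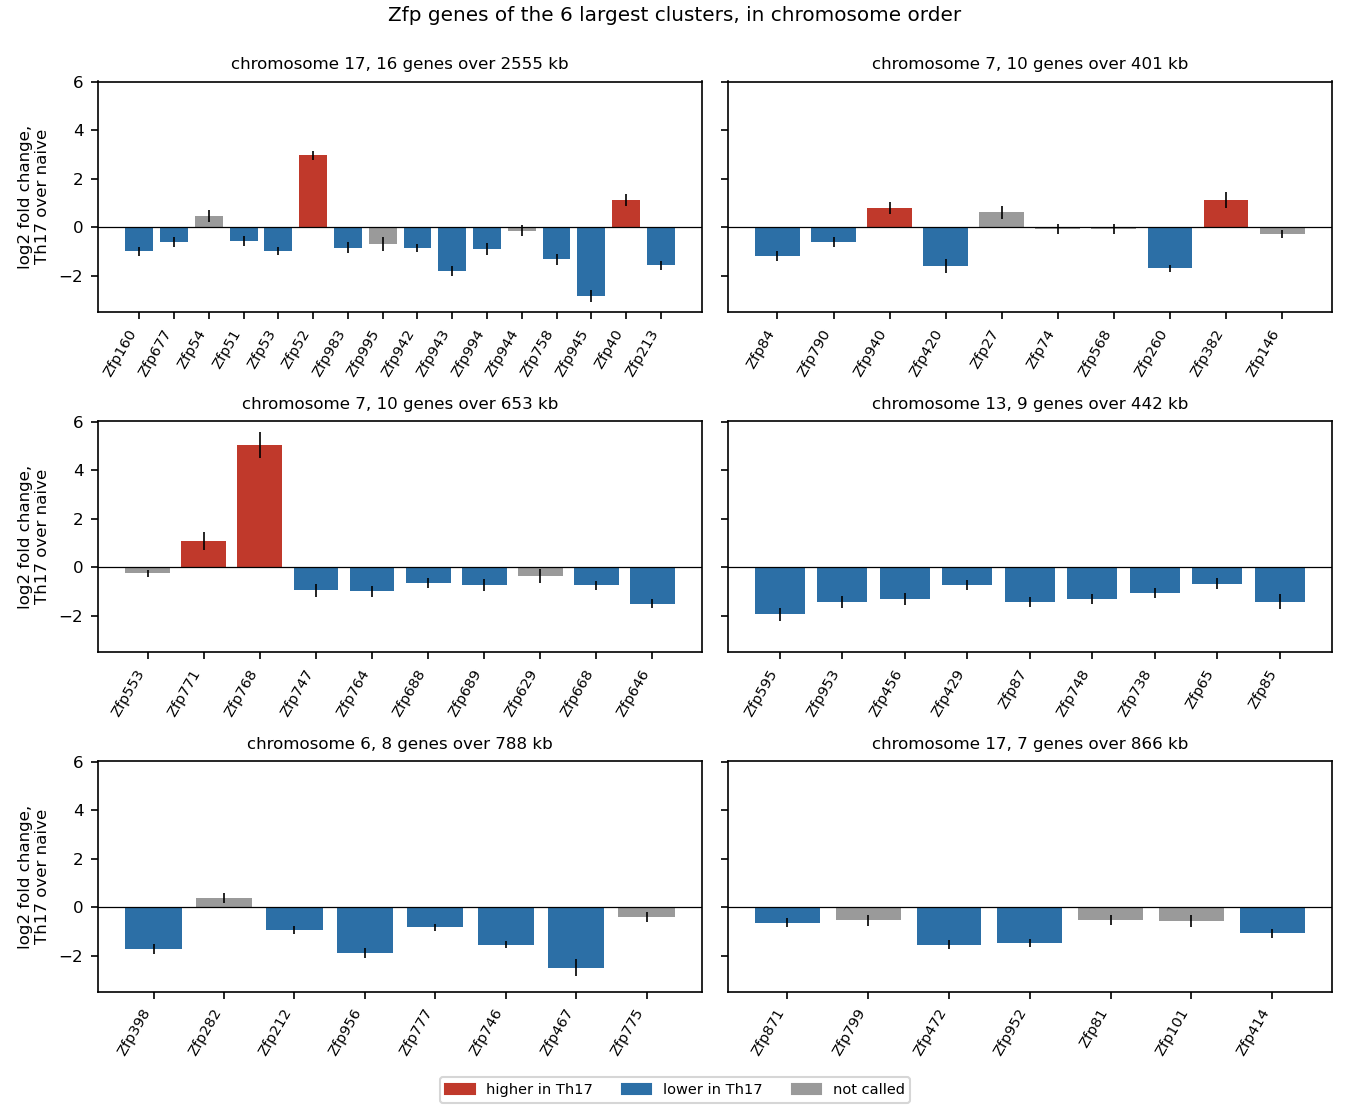
Log2 fold change, Th17 over naive, with its standard error, of the Zfp genes of the 6 largest clusters in chromosome order. All 9 bars of the chromosome 13 cluster point down, whereas Zfp52 rises by 2.98 among falling neighbours on chromosome 17 and Zfp768 by 5.05 on chromosome 7.

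The chromosome 13 genes also shared letters in their promoters, which are shown because the 9 genes moved together. RefSeq promoters (GRCm38.p6, 250 bases before to 50 after the start) were matched for 178 of the 213 members and for 8 of these 9. The longest word with 2 free bases that occurs in all 8 is TGGGANNTGTAGTC, searched on both strands. For 5 of them the 40 bases that end with this element are given on the gene's strand, with the element in capitals. Each lies before the gene's start in GENCODE as well.
Zfp595, minus strand, chr13:67332599-67332638: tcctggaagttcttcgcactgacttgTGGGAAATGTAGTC
Zfp953, minus strand, chr13:67360635-67360674: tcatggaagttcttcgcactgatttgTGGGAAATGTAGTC
Zfp456, minus strand, chr13:67375820-67375859: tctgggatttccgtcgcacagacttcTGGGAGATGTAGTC
Zfp429, minus strand, chr13:67399826-67399865: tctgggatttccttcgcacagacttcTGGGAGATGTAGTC
Zfp65, minus strand, chr13:67729179-67729218: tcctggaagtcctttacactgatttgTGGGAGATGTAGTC

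The stretch before the element was also alike in the 5 genes. The element was derived from these promoters, so its presence in them is no finding. On the other strand it reads GACTACANNTCCCA, most letters of which belong to the known motif of the factor ZNF143, whose mouse gene Zfp143 is itself a member. Outside the 8 promoters it was derived from, it occurred in 5 of 170 member promoters (2.94%). Of the 93 members with a KRAB box outside the 8, 3 held it (3.23%). Among 7675 tested genes with 500 reads 149 held it (1.94%), and this count includes the 8 source promoters. Of these 149 genes 37.6% fell and 24.8% rose, with a median log2 fold change of −0.12. The 8 source genes, which all fell, are part of that 37.6%, so it is not free of the genes that defined the element. The shares over all tested genes with 500 reads were 34.9% and 30.5%. Of the 5 members with it outside the 8, Zfp1, Zfp84 and Zfp420 fell, at log2 fold changes of −2.0 ± 0.16, −1.2 ± 0.19 and −1.58 ± 0.28. Zfp420 would have stayed under 500 reads with all libraries at the Th17 level, so its call supports no direction. Zfp28 and Zfp146, at −0.30 and −0.26, did not pass. Of the 165 members without it 95 fell and 13 rose, with a median log2 fold change of −0.69.

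Other short motifs were searched on both strands in the same promoters. The ETS core GGAAGT was in 43.8% of member promoters and 31.2% of those of genes with 500 reads, and CCAAT in 48.9% and 39.5%. The GC box GGGCGG was in 51.1% of member promoters and 68.2% of those of genes with 500 reads. In the same order, the E-box CACGTG was in 7.87% and 11.0%, and TATAAA in 7.30% and 6.38%. The genes with 500 reads include the members. Member promoters had a median of 16 CG dinucleotides and 55.2% G and C, against 22 and 61.3% in the genes with 500 reads.

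Of 7 genes listed for control of imprints or retroelements, 4 were members and the rest had next to no reads. Zfp809, which silences murine leukaemia viruses in mouse embryonic stem cells, fell, with 17.6 and 15.3 CPM in Th17 and 29.1 and 26.1 CPM in naive libraries (log2 fold change −0.75 ± 0.18). Zfp932, a repressor of endogenous retroviruses in mouse embryonic stem cells, fell as well, with 8.26 and 10.1 CPM in Th17 and 18 and 17.1 CPM in naive libraries (−0.94 ± 0.22), but 45.2% of its 50-base words occur in another gene. The call of Zfp809 was lost without naive library 1 (edgeR adjusted p = 0.057), and that of Zfp932 without naive library 1 (0.0824) or 2 (0.0682).

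The imprint regulator Zfp445 did not pass, with 101 and 92.7 CPM in Th17 and 157 and 111 CPM in naive libraries (edgeR adjusted p = 0.057), though it passed at −0.77 without naive library 2 (0.0243), at −0.57 without Th17 library 1 (0.0363), by DESeq2 (0.0426) and in the authors' deposited table (0.0204). Zfp568, which represses a placental Igf2 transcript in mouse, had 19.7 and 16.7 CPM in Th17 and 21.8 and 15.9 CPM in naive libraries and did not pass, with groups that overlap. Zfp57, Zfp708 and Zfp819 had 6, 2 and 2 reads over the 4 libraries.

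Genes through which KRAB proteins act were read beside them. Among 19 such partners with reads, 5 fell and 3 rose, beside 34.9% and 30.5% of all tested genes with 500 reads. These counts are not above those shares. The central partner Trim28 had 265 and 249 CPM in Th17 and 308 and 377 CPM in naive libraries and did not pass (log2 fold change −0.41 ± 0.17), though it passed without naive library 1 at −0.59 (edgeR adjusted p = 0.0395), by DESeq2 (0.0188) and in the authors' deposited table (0.0378). Setdb1 had 90.8 and 80.2 CPM in Th17 and 96.3 and 94.2 CPM in naive libraries and did not pass (−0.16 ± 0.15). The partners that fell were Chd3, a NuRD subunit, at −3.27 ± 0.38, Atf7ip, a SETDB1 cofactor, at −1.68 ± 0.25, Morc3 at −1.23 ± 0.16, the H3.3 chaperone Daxx at −1.10 ± 0.15 and Trim33 at −0.76 ± 0.16. Uhrf1, a reader of half-methylated DNA that is high in dividing cells, rose by 4.29 ± 0.20, the HP1 gene Cbx5 by 1.39 ± 0.17 and Pphln1, of the HUSH complex, by 0.49 ± 0.16. The call of Pphln1 was lost without Th17 library 1 at 0.29 (edgeR adjusted p = 0.251), without naive library 1 (0.145), without naive library 2 (0.167) and with no filter on low counts (0.0691).

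Of the 6 genes listed for lymphocyte biology 5 were members. Of these 3 fell, against 34.9% of all tested genes with 500 reads, and none of the other 2 passed. Besides Zfp831, Zfp318, which controls the splicing of IgD in B cells, and Zfp91, a ubiquitin ligase, fell. Zfp318 had 17.6 and 20.6 CPM in Th17 and 46.1 and 26.9 CPM in naive libraries, and its log2 fold change of −0.94 ± 0.27 was −0.53 without naive library 1, where the call was lost (edgeR adjusted p = 0.136). Zfp91 had 63.2 and 57.8 CPM in Th17 and 75.5 and 90.8 CPM in naive libraries (−0.46 ± 0.16), and its call was lost without Th17 library 2 (edgeR adjusted p = 0.135), without naive library 2 (0.0777), with a mean count of at least 50 (0.0556) and with no filter (0.0525). Zfp335, needed for naive T cells to mature in mouse, had 86.8 and 67.7 CPM in Th17 and 115 and 92.7 CPM in naive libraries. Its log2 fold change was −0.43 ± 0.18 and did not pass in edgeR, but it passed in the authors' deposited table (adjusted p = 0.00254) and at −0.65 without Th17 library 1 (edgeR adjusted p = 0.0136). Zfp281 did not pass, with 90.6 and 102 CPM in Th17 and 115 and 89.2 CPM in naive libraries.

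Of 13 members listed for chromatin and transcription outside the KRAB class, 9 fell and 2 rose. Of these 13, Zfp746 was found to hold a KRAB box. Among all tested genes with 500 reads 34.9% fell and 30.5% rose. Zfp592, which with Zfp687 forms a complex around ZMYND8 in human cells, had 69.4 and 63.7 CPM in Th17 and 264 and 253 CPM in naive libraries (log2 fold change −1.96 ± 0.15). Zfp687 had 25.4 and 25.1 CPM in Th17 and 72.2 and 44.3 CPM in naive libraries (−1.21 ± 0.24). Both genes had Th17 libraries below both naive libraries, which is no finding, since both were called as falling. Zfp217, a partner of LSD1 and CoREST in human cells, had 48.2 and 43.3 CPM in Th17 and 140 and 130 CPM in naive libraries (−1.56 ± 0.16), and Zfp746, a substrate of the ligase parkin, had 31.2 and 29.3 CPM in Th17 and 82.5 and 93.6 CPM in naive libraries (−1.54 ± 0.16). Zfp263, Zfp384, Zfp644, Zfp143 and Zfp148 fell by 1.04 to 0.54 on the log2 scale.

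Some of these calls were lost in other fits. Zfp143, which binds promoters and loop anchors, lost its call without naive library 1 (edgeR adjusted p = 0.073) or 2 (0.0872), Zfp148 (0.0563) and Zfp384 (0.0514) without naive library 1, and Zfp644, a partner of the methyltransferase G9a, without either naive library (0.345 and 0.13) and without Th17 library 1 at −0.48 (0.0591). With every library kept, Zfp644 also lost its call with DESeq2 size factors (edgeR adjusted p = 0.0549), with a mean count of at least 50 (0.0772) and in the authors' deposited table (0.064). Zfp219, which works with Sox9 in mouse cartilage, rose, with 110 and 109 CPM in Th17 and 37.2 and 38.2 CPM in naive libraries (log2 fold change 1.54 ± 0.15). Its libraries agreed closely within each group, and its exons overlap Arhgef40, Gm49086 and Tmem253 on the other strand. Zfp410, an activator of Chd4, had 49.6 and 49.6 CPM in Th17 and 44.2 and 50.6 CPM in naive libraries, and Zfp827 had 13.9 and 18.2 CPM in Th17 and 14.5 and 11.5 CPM in naive libraries; neither passed.

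Of the 13 members listed for RNA, ribosomes and cell division, 3 fell and 2 rose, and whether this differs from the other lists was not tested. The shares over all tested genes with 500 reads were 34.9% and 30.5%. Zfp106, an RNA-binding protein needed for motor neurons in mouse, had 395 and 334 CPM in Th17 and 202 and 147 CPM in naive libraries (log2 fold change 1.06 ± 0.20; edgeR adjusted p = 0.00152). Zfp367 had 21.0 and 20.6 CPM in Th17 and 9.60 and 8.38 CPM in naive libraries (1.21 ± 0.20). Zfp598, the ligase that marks collided ribosomes, fell, with 94.2 and 74.0 CPM in Th17 and 141 and 146 CPM in naive libraries (−0.77 ± 0.17), and lost its call without naive library 1 (edgeR adjusted p = 0.0523) or 2 (0.055). Zfp346, which binds double-stranded RNA, fell by 1.10 ± 0.15, with 22.7 and 21.4 CPM in Th17 and 46.7 and 47.7 CPM in naive libraries, and Zfp638 fell by 0.97 ± 0.16, with 85.6 and 86.2 CPM in Th17 and 183 and 155 CPM in naive libraries.

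The other 8 did not pass, at log2 fold changes of −0.37 to 0.36. Zfp207, which loads BUB3 on kinetochores, had 179 and 210 CPM in Th17 and 165 and 181 CPM in naive libraries. The SUMO ligase Zfp451, with 51.0 and 47.4 CPM in Th17 and 54.0 and 45.1 CPM in naive libraries, had groups that overlap. The ribosome assembly factors Zfp622 and Zfp593 and the genes Zfp326, Zfp330, Zfp706 and Zfp830 made up the rest. Zfp830 passed at −0.56 without Th17 library 1 (edgeR adjusted p = 0.0499), Zfp706 at −0.31 in the authors' deposited table (0.0171) and Zfp330 at 0.39 by DESeq2 (0.0286).

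Per kilobase of exons, the order of the members differed between the groups. The 5 highest in Th17 cells were Zfp106 at 37.9 and 32.0 CPM per kilobase, Zfp207 at 26.9 and 31.5, Zfp52 at 28 and 23.8, Zfp219 at 24.4 and 24.0 and Zfp598 at 24.2 and 19.0. Neighbours in this order overlap in their library values except Zfp106, which lay above the others. The 5 highest in naive cells were Zfp869 at 62.4 and 60 CPM per kilobase, Zfp740 at 43.9 and 46.3, Zfp598 at 36.2 and 37.5, Zfp592 at 35.6 and 34.2 and Zfp207 at 24.7 and 27.2, with no overlap between neighbours in either library. Zfp52 stood at 2.95 and 3.65 CPM per kilobase in naive cells. Zfp869, a KRAB gene, fell by 1.60 ± 0.16 on the log2 scale of CPM, with 34.4 and 29.7 CPM in Th17 and 99.3 and 95.4 CPM in naive libraries. Zfp740 fell by 1.37 ± 0.15, with 91.2 and 86.0 CPM in Th17 and 223 and 236 CPM in naive libraries.

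A-to-I editing turns adenosines in double-stranded RNA into inosine, which is read as guanosine. Of the sites listed for Th17 cells, 399 in 131 genes, 0 were in a Zfp gene, whereas of the 571 sites in 270 genes listed for naive cells 15 were assigned to one, in 6 Zfp genes. The site assigned to both Zfp335 and Pcif1 is an adenosine of Pcif1 by its strand, which leaves 14 sites in 5 Zfp genes (2.45%). A site was listed for a group only with a level in both of its libraries, so the list does not tell a site without editing in Th17 cells from a site with too few reads. The 5 genes, Zfp652, Zfp398, Zfp626, Zfp84 and Zfp809, fell in Th17 cells, and the part of the lower read number in the missing Th17 listings was not tested. The median level over the 14 sites was 24.6% of reads, against 18.9% over all sites listed for naive cells. The depth behind these naive levels is unknown.

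The edited adenosines are shown in their transcripts (GENCODE M21, mm10, T for U), with the edited base in capitals and 12 bases on each side, because their surroundings are what the editing enzymes meet.
Zfp652, 3′ UTR, chromosome 11, position 95770496, plus strand: tcagtcgagtcaAgagcctgcctgt
Zfp398, 3′ UTR, chromosome 6, position 47871439, plus strand: catgcatgtggtAcacatatataca
Zfp398, 3′ UTR, chromosome 6, position 47871725, plus strand: tgtgcaccatatAcatgcctggtgc
Zfp626, 3′ UTR, chromosome 7, position 27821588, plus strand: gtcctaatgttcAattcccagtaac
Zfp84, coding sequence, chromosome 7, position 29776736, plus strand: ggagtgcgggaaAgccttcaccaac

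With those of the wild-type and DDX5-deficient listing described below, 13 sites had a transcript sequence, and the window held an adenosine on the member's own strand at 12 of them. The 4 sites in Zfp809 and the site in Zfp949 had none, and their bases were not checked. A G came before the site, the neighbour that ADAR enzymes avoid, at 0 of 13, and none of the windows occurred in another gene's transcripts, either as written or with G at the site. The exception was the site shared by Zfp335 and Pcif1, genes that overlap on opposite strands, at 26.8% and 46.4% in the naive libraries. The base there is a T on the strand of Zfp335, so the adenosine is that of Pcif1.

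Zfp652, the gene with the second largest fall, had its site edited in 17% and 23.1% of reads. Zfp398, a KRAB gene that fell by 1.72 ± 0.20 on the log2 scale, with 14.8 and 14 CPM in Th17 and 55.4 and 39.8 CPM in naive libraries, carried 6 sites within 328 bases of its 3′ UTR. The 4 upstream sites were edited in 15.4% to 26.7% of reads per library, and the 2 downstream sites in 37.5% and 33.3% and in 38.5% and 25%. The second printed window of Zfp398 is that of the first of those downstream sites, and the first window that of the fourth upstream site, at 17.6% and 25%. Zfp626, with 12.3 and 12.9 CPM in Th17 and 34.1 and 24.2 CPM in naive libraries, had neighbouring bases edited in 28.6% and 50% and in 14.3% and 33.3% of reads. Zfp809, the retrovirus silencer, had 4 sites within 18 bases of an intron, at 20.0% to 41.7% of reads.

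The coding site was in Zfp84, a KRAB gene with 11 fingers that had 17.8 and 17.3 CPM in Th17 and 46.3 and 33.1 CPM in naive libraries. The site was edited in 24.2% and 19.0% of reads in the naive libraries. It is the last base of the codon of residue 284, which editing turns from AAA to AAG, so that lysine is kept. The codon lies in the second finger found in the protein. The coding run of residues 275 to 299 (chr7:29776707-29776781, plus strand, GENCODE M21, mm10) is given with the edited base, number 30 of the run, in capitals.
Zfp84: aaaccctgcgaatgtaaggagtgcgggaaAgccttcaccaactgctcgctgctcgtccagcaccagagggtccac

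**Figure D5:**
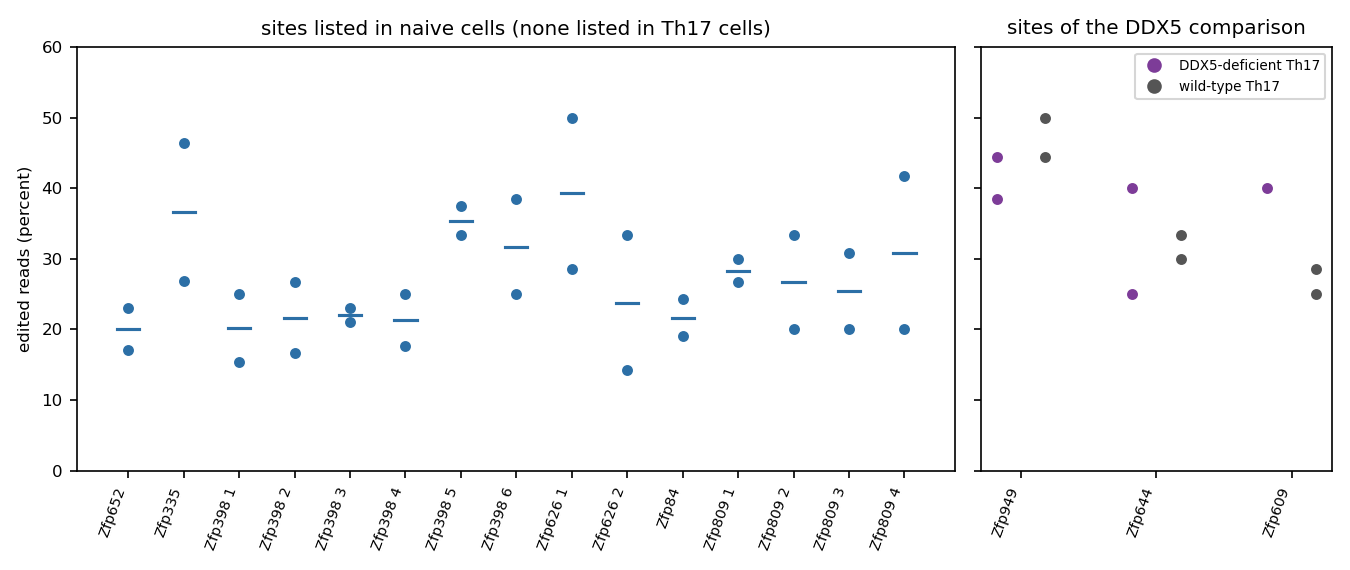
Share of edited reads (percent) per library at each site assigned to a Zfp gene, on the left the 15 sites listed for naive cells, that of Pcif1 in the overlap with Zfp335 included (blue, bar at the mean of 2 libraries) and on the right the DDX5-deficient libraries (purple) beside the wild-type libraries (grey). Levels lie between 14.3% and 50% in the naive libraries, and the 2 libraries of a group often differ as much as the sites do.

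The listing of wild-type and DDX5-deficient Th17 cells had 355 sites, of which 2 were assigned to a Zfp gene and a further site lies in the span of Zfp609. With 2 libraries a group no exact test can give a two-sided p below 0.333, and none was made. The site in Zfp949 (chromosome 9, position 88553340), a KRAB gene, was edited in 44.4% and 38.5% of reads in DDX5-deficient and 50% and 44.4% in wild-type libraries, levels that touch. Wild-type library 2 had 8 edited of 18 reads there (95% Clopper-Pearson interval 21.5% to 69.2%, counting error only).

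The site in Zfp644 (chromosome 5, position 106689865), in a transcript with a retained intron, was edited in 25% and 40% of reads in DDX5-deficient and 30.0% and 33.3% in wild-type libraries. Its 6 reads in wild-type library 2 gave an interval of 4.33% to 77.7%. The site in the span of Zfp609 (chromosome 9, position 65692631), which the file gives to Oaz2, is an adenosine of the 3′ UTR of Zfp609 by its strand. The listed change there is T to C on the plus strand, and Zfp609 lies on the minus strand. The site was edited in 40.0% of reads in DDX5-deficient library 1 and had no level in DDX5-deficient library 2. In wild-type libraries it was edited in 28.6% and 25% of reads. Depth at these sites is known for wild-type library 2 alone, and whether DDX5-deficient and wild-type cells differ there was not tested. Sequence from the Zfp644 site, on the minus strand with the edited adenosine in capitals, is given because the file lists the change as T to C on the plus strand.
Zfp644: tggttacatagtAagctctaggcta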

How the data were processed

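Ribosome-depleted RNA of 8 libraries was sequenced. Reads were aligned with STAR 2.6.1a to mm10, counted with featureCounts and tested with DESeq2 1.18.1, per the submitters' processing notes; the strand setting is not given in the sources used here. The authors deposited whole-number counts per gene in the naive and Th17 libraries, with a normalized signal (the count divided by a size factor) that was not used, a log2 fold change with its standard error and an adjusted p-value, per the file headers. Editing levels were deposited as a fraction of reads per site and library, printed here as percent, with a confidence score of 0 to 1 and a coverage count, per the file headers, and SAILOR is named in the labels. The coverage was that of Th17 library 2 and wild-type library 2, where level times coverage was whole within 0.01 reads at 100% of sites.

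The genes, lists and classes were chosen with earlier results of these data known. Counts were tested with edgeR 4.0.16 in R 4.3.3 (filterByExpr, TMM, robust quasi-likelihood, group alone, Benjamini-Hochberg over all genes tested, called under 0.05). Levels are CPM on TMM-scaled library sizes, where 1 CPM is 13.2 to 28.8 reads, and SE is the log2 fold change over the root of F. P-values rest on 2 libraries a group. Tested on simulated counts of Th17 against naive, the fit recovered 37 of 50 genes raised by a log2 of 1, 35 of 50 lowered by 1 and 50 of 50 each changed by 2, with 5 false calls among 12669 genes tested. The simulation gave every gene the same dispersion and left most genes unchanged, unlike the real data. These false calls are therefore not the error rate of the real comparison. KRAB and SCAN domains were found in proteins translated from GENCODE M21 transcripts with profile models, and fingers by the spacing of their cysteines and histidines. Alternatives were DESeq2 1.42.0, other scaling, filters and minimum sums, a replicate block, left-out libraries, the authors' values, sites by gene span and a coverage minimum. Named were members of the role lists, the 10 largest rises and falls, members with sites, the 5 highest per kilobase, those nearest to the minimum sum, called KRAB partners and clusters. Of the members, 58 overlap an exon on the other strand and 10 share at least 25% of their 50-base words with another gene.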

Additional observations from a re-analysis of the deposited data

How the results depend on the processing

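With 2 libraries a group, the counts of calls depended most on the naive libraries. With 1 library left out, the count of Zfp genes that rose ranged from 8 to 25, the count that fell from 71 to 132, and the median log2 fold change from −0.81 to −0.59; the spread of the single library left is then taken from the other group. With a minimum sum of 1000 reads 8 of the members rose. DESeq2 size factors, the DESeq2 Wald test, the authors' deposited table, no filter, a mean count of at least 50, the replicate block and a minimum sum of 250 kept the counts within 1.5 times and the median within the spread between libraries. The descriptions give Th17 library 2 and naive library 2 the same number and the other libraries a number each; whether it marks an animal is not stated. A term for these numbers would leave no residual degrees of freedom, and a fit with it as a random term was not run. The libraries were treated as unpaired. The differences between replicate numbers correlated at −0.08 across genes. This cannot tell whether the shared number marks an animal, since the replicate 1 libraries carry different numbers. With the replicate block 127 members fell and 20 rose, Zfp608 (edgeR adjusted p = 0.0906) and Zfp644 (0.0517) lost their calls, and Zfp335 (0.0404) and Zfp445 (0.0387) gained one. Named members that did not pass changed sign: Zfp451 was at 0.016 under the DESeq2 Wald test, 0.021 with its size factors, 0.018 in the authors' table and 0.036 with a mean count of at least 50. With 1 library left out, log2 fold changes ran from −0.21 to 0.086 for Zfp451, −0.33 to 0.15 for Zfp568, −0.33 to 0.070 for Zfp281 and −0.068 to 0.092 for Zfp410. The cause of these changes was not tested. By gene span the editing lists held 15 and 3 sites in Zfp genes, and the mean difference between DDX5-deficient and wild-type cells was −2.47 percentage points over 2 sites and −5.77 at the site with a coverage of at least 10. Sites with few reads limit what the editing lists can show.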

Other observations

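Some Zfp genes of the role lists stayed under 500 reads and so outside the 213. Zfp473, a histone RNA processing factor in human cells, had 6.80 and 7.05 CPM in Th17 and 0.424 and 0.563 CPM in naive libraries and rose (edgeR adjusted p = 0.000115). Zfp683, the factor Hobit of resident lymphocytes, had 0.104 and 0.152 CPM in Th17 and 1.11 and 0.915 CPM in naive libraries and fell by 2.99 ± 0.77 on the log2 scale (SE; edgeR adjusted p = 0.00792), a call lost without naive library 1 (edgeR adjusted p = 0.237), without naive library 2 (0.152), with no filter (0.0922), by DESeq2 (0.0555) and in the authors' deposited table (0.125). Zfp532 and Zfp462 were read in Th17 libraries alone and unevenly there. Zfp532 had 17 and 316 reads and Zfp462 had 26 and 79 reads in Th17 libraries 1 and 2, against 0 reads in both naive libraries. Zfp462 passed (edgeR adjusted p = 0.034) but not without naive library 1 (0.0988) or 2 (0.0946), and Zfp532 did not pass (0.324).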
